A study of Mus musculus with 12 samples.

Results

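The 39 genes described here encode actins, myosins, tropomyosins, calponins, focal adhesion proteins and LIM-domain proteins. The genes were chosen with earlier results of these data known. They were taken by name, as the rows of the deposited gene table that carry their symbols, and all 39 were found among its 54347 genes. A total of 38 of them were among the 15319 genes tested; Actg2, the enteric smooth muscle actin, was not tested, with 0 to 5 counts per library. The study measured RNA in mouse PYMT cells, a cell line named after the mammary tumour model driven by polyoma middle T antigen, and grown in matrigel, a basement membrane gel. It addressed programs of dormancy under 2 ligands of the TGF-beta superfamily. The TGFB2 group had received TGFB2 at 5 ng/mL, the BMP4 group BMP4 at 5 ng/mL, and the BMP4-TGFB2 group both at 5 ng/mL, for 3 days in each case, followed by new medium and harvest 2 days later. The NT group, called nontreated in the file headers, had received neither. Each group held 3 libraries, called biological replicates in the labels, which do not say what separated them. Because the cells were a single line, a p-value here speaks only of the scatter among its libraries, which may be technical.

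Actin filaments are built from actin subunits, bound along their length by tropomyosins, caldesmon and calponins, pulled by myosin, and joined to each other by alpha-actinins and filamin. At focal adhesions they are coupled to integrins through talin, vinculin, kindlins, paxillin and zyxin. Ligands of the TGF-beta family are known to act on this machinery in mammary epithelium, and many of its genes are known targets of serum response factor, which binds the CArG box, and of SMAD and TEAD factors.

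The promoters of 6 genes are printed because 3 of them (Fhl2, Fermt1 and Plek2) belong to the genes with large responses to TGFB2 in these data, while the other 3 (Cnn2, Rnd3 and Vcl) show the CArG box among genes with smaller or no called response. Each sequence is the 250 bases before a RefSeq transcript start, read 5′ to 3′ on the strand of the gene in GRCm38.p6, with motif matches in capitals. At most 26 bases of a printed window lie in an exon of the same gene in GENCODE M21. The Fhl2 window is chr1:43163962-43164211 on the minus strand, inside the span that GENCODE gives the gene. Its capitals are 2 SMAD elements, starting 148 and 123 bases before the start, and a CArG box starting 31 bases before it.
Fhl2: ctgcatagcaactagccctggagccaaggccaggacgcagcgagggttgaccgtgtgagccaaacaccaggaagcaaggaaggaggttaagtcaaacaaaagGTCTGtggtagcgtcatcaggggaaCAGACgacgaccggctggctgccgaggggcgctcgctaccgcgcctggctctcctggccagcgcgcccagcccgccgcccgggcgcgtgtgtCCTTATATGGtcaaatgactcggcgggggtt
The Fermt1 window is chr2:132946037-132946286 on the minus strand, upstream of the gene, with a SMAD element 49 bases before the start.
Fermt1: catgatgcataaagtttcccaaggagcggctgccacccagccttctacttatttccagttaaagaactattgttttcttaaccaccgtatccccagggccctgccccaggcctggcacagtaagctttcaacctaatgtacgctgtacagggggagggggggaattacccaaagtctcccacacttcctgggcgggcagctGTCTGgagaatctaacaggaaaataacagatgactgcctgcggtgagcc
The Plek2 window is chr12:78906939-78907188 on the minus strand and holds a SMAD element 128 bases before the start.
Plek2: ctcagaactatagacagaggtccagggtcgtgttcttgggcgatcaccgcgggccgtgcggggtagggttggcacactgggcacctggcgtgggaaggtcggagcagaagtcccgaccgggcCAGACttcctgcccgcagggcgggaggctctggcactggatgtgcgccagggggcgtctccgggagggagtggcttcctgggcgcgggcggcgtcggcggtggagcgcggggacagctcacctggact
The Cnn2 window is chr10:79988350-79988599 on the plus strand, with a CArG box 56 bases before the start.
Cnn2: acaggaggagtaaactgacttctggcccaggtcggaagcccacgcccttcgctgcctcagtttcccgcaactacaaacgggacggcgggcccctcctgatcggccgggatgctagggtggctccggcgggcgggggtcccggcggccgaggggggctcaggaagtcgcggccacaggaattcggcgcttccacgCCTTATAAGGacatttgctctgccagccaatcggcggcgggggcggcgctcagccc
The Rnd3 window is chr2:51149112-51149361 on the minus strand, with a SMAD element 185 and a CArG box 100 bases before the start.
Rnd3: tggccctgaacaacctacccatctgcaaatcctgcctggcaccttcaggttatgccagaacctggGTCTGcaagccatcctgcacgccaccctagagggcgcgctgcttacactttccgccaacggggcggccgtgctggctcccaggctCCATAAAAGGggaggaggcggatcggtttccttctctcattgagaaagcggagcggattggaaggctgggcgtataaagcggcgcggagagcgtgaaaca
The Vcl window is chr14:20929148-20929397 on the plus strand, with a CArG box 227 and an MCAT motif 143 bases before the start.
Vcl: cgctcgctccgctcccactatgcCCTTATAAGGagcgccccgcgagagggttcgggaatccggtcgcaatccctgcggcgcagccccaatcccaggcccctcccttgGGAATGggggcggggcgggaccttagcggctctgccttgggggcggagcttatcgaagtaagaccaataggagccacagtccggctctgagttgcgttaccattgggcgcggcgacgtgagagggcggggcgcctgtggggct

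The search covered both strands of these windows for the CArG box, for MCAT (CATTCC or GGAATG, the TEAD motif) and for the SMAD element (CAGAC or GTCTG), and no matches overlapped. Of the 39 genes, 35 had an entry in the promoter table, with 42 promoters between them. A CArG box was found in 10 of these promoters (23.8%), against 482 of all 32851 promoters (1.47%). The 9 genes that have it are Actg1, Cnn2, Fermt2, Fhl1, Fhl2, Myl6, Myl9, Rnd3 and Vcl. MCAT was found in 9 promoters (21.4%), against 12.6% of all promoters, and the SMAD element in 23 (54.8%), against 42.2% of all promoters. The window of Pdlim7, which also had a large response to TGFB2, held no match to any of these motifs. A second Fhl2 window, chr1:43196762-43197011, held a CArG box 96 bases before the start and no SMAD element. These matches describe the letters of the windows and say nothing about binding in these cells.

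Library totals ran from 28543128 to 42167771 estimated counts, and the 39 genes took 1.26% to 2.22% of them. In a principal component analysis of all tested genes, the replicate 1 libraries of all 4 groups stood apart on the second component, at 37.5 to 49.7, with every other library below 0. The actin genes moved with this split: 16 of the 39 (41.0%) had their lowest TPM in replicate 1 of every group, against 1817 of 14324 genes (12.7%) with over 120 counts in all. The part of the replicate split in the results was not tested, but counts without the replicate 1 libraries are given below. Levels are in TPM, a transcript abundance that the authors scaled for transcript length and library depth and deposited, and changes are log2 fold changes of the count fit, with their SE. Adjusted p-values are from edgeR's quasi-likelihood test with Benjamini-Hochberg adjustment over all genes tested, and a gene passed at an adjusted p under 0.05.

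PYMT cells carried an epithelial profile in which the luminal markers summed highest, beside the basal keratin Krt14. The 8 luminal markers summed to 3511 to 3963 TPM with TGFB2, 3183 to 3616 with BMP4, 3442 to 3708 with both and 3697 to 3949 in NT, and 4 of the 8 fell with TGFB2 and with both, among them Elf5 (-3.91 ± 0.31 in TGFB2 against NT, adjusted p = 1.85e-05), while none rose; with BMP4 Elf5 alone fell. Among the 8 basal and myoepithelial markers that are not among the 39 genes, Krt14 made up nearly all of the sum, which was 349 to 573 TPM with TGFB2, 937 to 1321 with BMP4, 418 to 982 with both and 183 to 405 in NT, while Krt5 and Trp63, the defining markers of basal cells, averaged under 1 TPM in every group. Of the 7 basal markers tested none passed with TGFB2, Krt14 rose with BMP4, and Krt14, Krt17 and Snai2 rose with both. Smooth muscle and pericyte markers summed to 98 to 167 TPM with TGFB2, 97.5 to 109 with BMP4, 93.5 to 181 with both and 69.6 to 86.2 in NT, and came mostly from Smtn, Mcam and Notch3, and of the 8 tested 2 rose with TGFB2, 3 with both and none with BMP4. Myh11, the defining smooth muscle myosin, averaged 0.425 TPM with TGFB2 and 0.183 TPM in NT. Fibroblast markers summed to 9.43 to 15.3 TPM with TGFB2, 2.88 to 13.2 with BMP4, 5.78 to 14.5 with both and 2.3 to 8.54 in NT, and 5 of the 8 tested rose with TGFB2, against 11.3% of all genes tested, among them Col1a1 (1.85 TPM with TGFB2 and 0.42 in NT). Leukocyte markers summed to 6.44 to 15.6 TPM with TGFB2, 6.94 to 11.5 with BMP4, 7.35 to 13.4 with both and 2.68 to 6.21 in NT; 2 of the 4 tested rose with TGFB2, and Adgre1, a macrophage marker, was at 0 in the NT group. The 4 endothelial markers summed to at most 1.49 TPM in any library. For each of these marker counts, the shares of all genes tested serve as background. These were 11.3% up and 11.1% down with TGFB2, and 3.19% up and 2.25% down with BMP4. With both ligands 13.3% rose and 12.9% fell. The lists are short, so their counts are descriptions only. The part of other cell types in the results was not tested, and in bulk RNA a different number of cells of a type and a different amount of RNA per cell cannot be told apart.

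**Figure D1:**
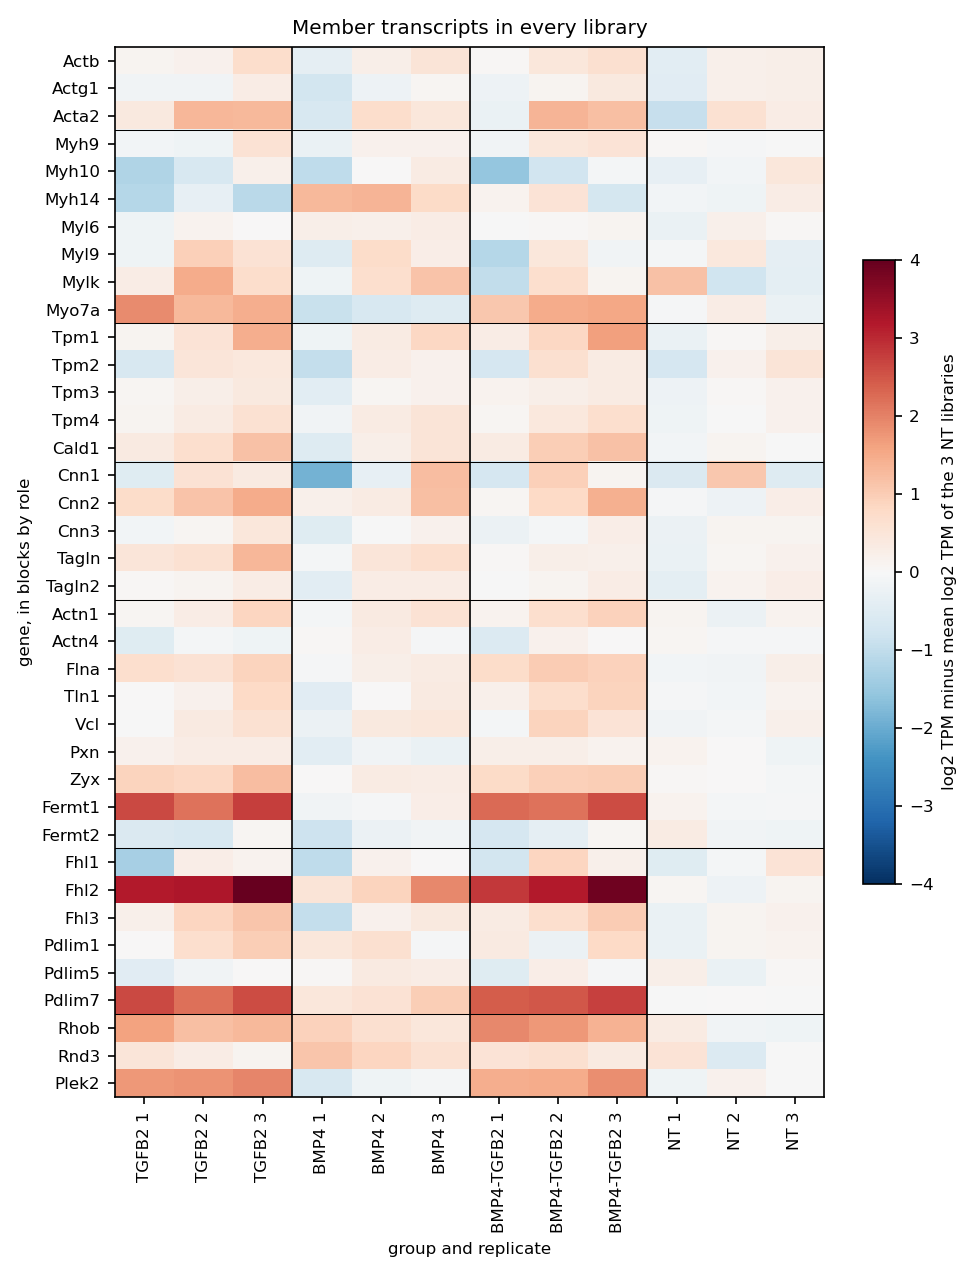
Colour shows log2 TPM minus the mean log2 TPM of the 3 NT libraries for the 38 tested genes (rows, in blocks by role) in each library (columns, by group and replicate). Fhl2, Fermt1, Pdlim7, Myo7a, Rhob and Plek2 are red in all 6 libraries that received TGFB2, while most rows stay pale.

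With TGFB2 alone, the highest log2 fold changes were those of Fhl2, Fermt1 and Pdlim7. Most of the 38 tested genes did not pass in the fit by group alone. By role, 3 of 9 crosslinker and adhesion plaque genes, 2 of 6 LIM-domain genes, 2 of the 3 genes Rhob, Rnd3 and Plek2, and 1 each of 7 myosin, 5 tropomyosin and caldesmon and 5 calponin genes rose. Of the 38 tested genes 11 passed in TGFB2 against NT, against 22.3% of all genes tested. Of these, 10 rose (11.3% of all genes rose) and only Myh14 fell (11.1% of all genes fell). The median log2 fold change of the 38 genes was 0.43, against 0.01 over all genes tested, and 32 of 38 lay above 0, against 50.7% of all genes. As the genes were chosen with earlier results known, these and later contrasts with all genes describe the chosen genes only. They are no test of the actin machinery as a whole. For 135 other tested genes of that machinery, described below, the median was 0.06. The number that passed was 7 without TGFB2 replicate 3 or without NT replicate 2. Without the replicate 1 libraries of all groups 12 rose and none fell, against 13% of all genes that rose. With the replicate number as a block 18 rose (18.7% of all genes) and 2 fell (19.2% of all genes). Same-numbered libraries of TGFB2 and NT did not pair by the rule given below, though all 3 correlated best with their own number. With BMP4 and TGFB2 together 10 of 38 passed against NT, against 26.2% of all genes tested, and all 10 rose, against 13.3% of all genes. Without the replicate 1 libraries this comparison had 17 of the 38 genes that rose, against 14.9% of all genes. With the block 20 rose (20.4% of all genes) and 1 fell (21% of all genes). Pairing by that rule did not hold here either, though 2 of the 3 numbers correlated best with their own. With BMP4 alone 2 of 38 passed, near the 5.44% of all genes tested, and both rose, against 3.19% of all genes.

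**Figure D2:**
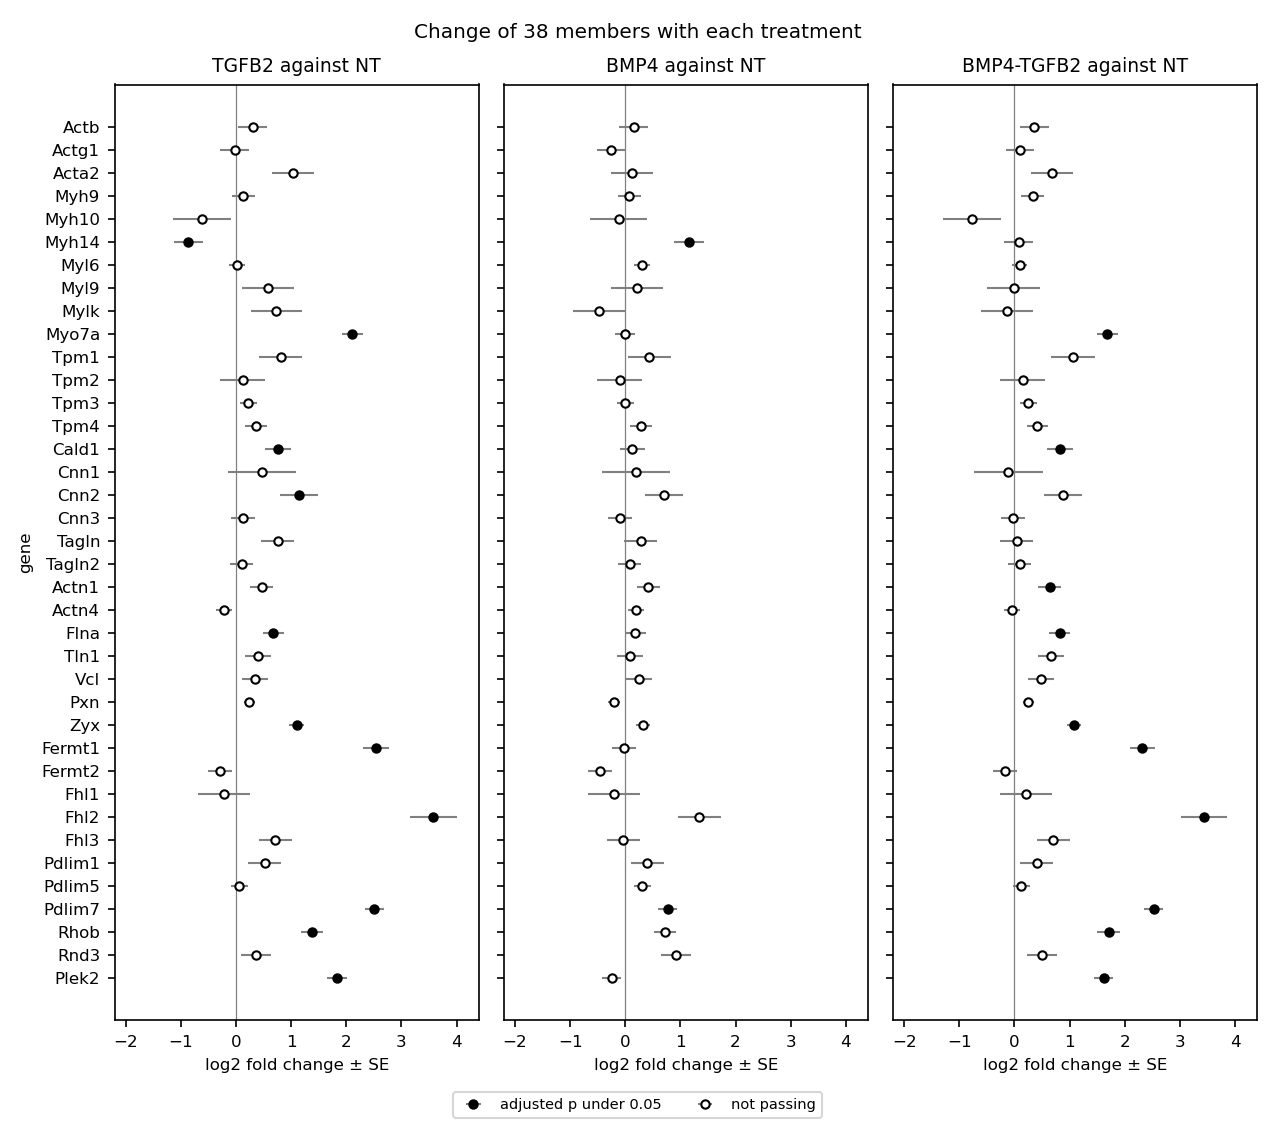
Points are log2 fold changes of the 38 tested genes against NT and bars their SE, for TGFB2, BMP4 and BMP4-TGFB2 (3 libraries per group), and filled points passed at an adjusted p under 0.05. Fhl2 lies furthest right with TGFB2 (3.58) and with both ligands (3.43), and Myh14 is filled on the left with TGFB2 and on the right with BMP4.

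The 2 cytoplasmic actins were the most abundant of the 39 genes and passed in no comparison as tested. With the replicate block Actb passed in BMP4-TGFB2 against NT (0.37, adjusted p = 0.0378). Actb, beta-actin, had 1497, 1572 and 2245 TPM with TGFB2, 1069, 1646 and 1992 with BMP4, 1435, 1902 and 2164 with both, and 1034, 1582 and 1623 in NT. Actg1, gamma-actin, had 3931, 3925 and 5333 TPM with TGFB2, 2627, 3774 and 4567 with BMP4, 3790, 4696 and 5702 with both, and 3161, 4994 and 5132 in NT. For both genes the groups overlapped, and the log2 fold changes in TGFB2 against NT were 0.30 ± 0.26 for Actb and -0.03 ± 0.25 for Actg1 (adjusted p = 0.455 and 0.949). Of their 31-base stretches, 23.6% in Actb and 40.2% in Actg1 also occur in transcripts of other genes. Most are shared with Lrrc58 for Actb (mean CPM 114, against 1700 for Actb) and Gm12715 for Actg1 (5.76, against 5090). How far this sharing affects their counts was not tested. Actb made up 28.6% ± 1.02 of the summed TPM of the 4 actins with TGFB2, 29.9% ± 0.828 with BMP4, 27.9% ± 0.759 with both and 24.2% ± 0.353 in NT (SD, n = 3 each). All 9 treated libraries, at 27.4% to 30.3%, lay above the NT libraries, at 24% to 24.6%; this share is a description and was not tested.

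Smooth muscle actin was low throughout. Acta2, known as a marker of myofibroblasts and myoepithelium, had 5.9, 11.4 and 11 TPM with TGFB2, 2.89, 7.28 and 6.24 with BMP4, 3.73, 11.6 and 10.4 with both, and 2.4, 6.88 and 5.58 in NT. Replicate 1 was the lowest library of each group, and the groups overlapped in TPM. In estimated counts, not scaled for depth, TGFB2 (324, 382 and 435) lay above NT (109, 231 and 205). Its log2 fold change in TGFB2 against NT was 1.04 ± 0.38 and did not pass (adjusted p = 0.0726). It passed with DESeq2 (adjusted p = 0.0307), no filter on low counts (0.0388), the replicate block (0.000394) and without the replicate 1 libraries (0.00739). In BMP4-TGFB2 against NT it passed only with the replicate block (adjusted p = 0.00506) and without the replicate 1 libraries (0.0229). Actg2 had 0, 0.2 and 0.157 TPM with TGFB2, 0, 0.186 and 0.123 with BMP4, 0.108, 0 and 0.13 with both, and 0.0375, 0.075 and 0.207 in NT, no more than 5 counts in any library. Other members known from contractile smooth muscle were also low, though higher on average than Actg2. Cnn1, calponin 1, ranged over all libraries from 0.148 to 1.3 TPM, and Tagln, transgelin or SM22-alpha, from 1.98 to 5.95. Myl9, a regulatory light chain, ranged from 1.87 to 7.95, and Mylk, the kinase of that light chain, from 0.372 to 2.06. None of the 4 passed in any comparison as tested, though Tagln passed in TGFB2 against NT with the replicate block (0.74, adjusted p = 0.0227). Tagln shares exon sequence with Pcsk7, which had 1570% of its mean CPM, and with Gm48529 (66.1%), in unstranded reads, so its values are uncertain.

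Among the myosin heavy chains, the nonmuscle isoform Myh14 went down with TGFB2 and up with BMP4. Myh14 had 35.6, 62.3 and 37.3 TPM with TGFB2, 195, 204 and 134 with BMP4, 87.4, 115 and 48.2 with both, and 72.4, 69.8 and 96.9 in NT. The TGFB2 libraries all lay below NT and the BMP4 libraries all above it, while those with both ligands spanned the NT range. Fold changes of Myh14 on the log2 scale were -0.86 ± 0.26 in TGFB2 against NT (adjusted p = 0.0358), 1.16 ± 0.26 in BMP4 against NT (adjusted p = 0.0281) and 0.08 ± 0.26 in BMP4-TGFB2 against NT (adjusted p = 0.859). TGFB2 against BMP4 gave -2.02 ± 0.27 (adjusted p = 0.00142), a call kept in every alternative tried. The other Myh14 calls were lost for several left-out libraries, while the log2 fold change stayed between -1.08 and -0.71 in TGFB2 against NT and between 1.08 and 1.31 in BMP4 against NT on leaving out 1 library at a time. The fall with TGFB2 was lost without TGFB2 replicate 1 or 3, NT replicate 2 or 3, or all replicate 1 libraries (adjusted p 0.0671 to 0.13). The rise with BMP4 was lost on leaving out BMP4 replicate 1 or 2, NT replicate 1 or 2, or all replicate 1 libraries (adjusted p 0.0722 to 0.169), and passed with the replicate number as a block (1.12, adjusted p = 0.00997).

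Myh9, the main nonmuscle myosin heavy chain by TPM in NT, did not pass in any comparison and ranged from 138 to 247 TPM over all libraries. Myh14 therefore took 20.1% ± 8.17 of the summed TPM of Myh9, Myh10 and Myh14 with TGFB2, 50% ± 8.67 with BMP4, 28.6% ± 10.9 with both and 31.4% ± 3.73 in NT (SD, n = 3 each). Myh10, the remaining nonmuscle heavy chain, ranged from 2.09 to 8.31 TPM and was lowest in replicate 1 of each group. Its log2 fold change was -0.62 ± 0.52 in TGFB2 against NT (adjusted p = 0.433). With the replicate block it passed in TGFB2 against NT (-0.77, adjusted p = 0.0086) and in BMP4-TGFB2 against NT (-0.93, adjusted p = 0.00292). Myl6, the essential light chain, ranged from 817 to 1192 TPM and did not pass.

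Myo7a, an unconventional myosin known for its role in inner ear hair cells, was the one myosin of the 39 genes that rose with TGFB2. It had 12.6, 8.48 and 9.4 TPM with TGFB2, 1.85, 2.21 and 2.4 with BMP4, 7.19, 9.55 and 9.97 with both, and 3.34, 4.2 and 2.84 in NT. The 6 libraries with TGFB2 all lay above NT and the BMP4 libraries all below it. The log2 fold change of the counts was 2.11 ± 0.19 in TGFB2 against NT (adjusted p = 4.33e-05) and 1.69 ± 0.19 in BMP4-TGFB2 against NT (adjusted p = 0.000101). In BMP4 against NT it was 0.00 ± 0.19 (adjusted p = 0.994), where the log2 ratio of mean TPM was -0.68. TPM and counts differed by more than 0.5 on the log2 scale for this gene in 2 of the 3 comparisons with NT, and otherwise only for Mylk in BMP4 against NT. TPM is corrected for the transcript length that the authors' tool assigned and the counts were not; the part of this in the lower BMP4 TPM was not tested.

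Tropomyosins and caldesmon bind along the filament. Cald1, caldesmon, had 211, 265 and 372 TPM with TGFB2, 116, 196 and 234 with BMP4, 209, 327 and 371 with both, and 153, 179 and 165 in NT. All 6 libraries with TGFB2 lay above NT, and the BMP4 libraries spanned its range. Its log2 fold change was 0.77 ± 0.24 in TGFB2 against NT (adjusted p = 0.0373) and 0.82 ± 0.24 in BMP4-TGFB2 against NT (adjusted p = 0.0239). The first call was lost on leaving out TGFB2 replicate 2 or 3, any 1 NT library, BMP4 replicate 2, or BMP4-TGFB2 replicate 2 (adjusted p 0.0524 to 0.133). The second was lost on leaving out BMP4-TGFB2 replicate 2 or 3 or any 1 NT library (adjusted p 0.0514 to 0.0875). None of the 4 tropomyosins passed in the comparisons as tested. Tpm1 showed the widest spread, from 338 to 1282 TPM, with replicate 3 the highest library of every group, and a log2 fold change of 0.81 ± 0.39 in TGFB2 against NT (adjusted p = 0.169) and 1.07 ± 0.40 in BMP4-TGFB2 against NT (adjusted p = 0.0683). The value for both ligands passed with DESeq2 (adjusted p = 0.0255), with no filter on low counts (0.00655), with the replicate block (0.000664) and without TGFB2 replicate 3 or BMP4-TGFB2 replicate 1 (0.0467 and 0.0424). Tpm3 ranged from 346 to 610 TPM, Tpm4 from 309 to 550 and Tpm2, the form typical of muscle, from 6.88 to 20.9. Some sequence is shared with other genes, 27% of the 31-base stretches of Tpm3 and 20% of those of Tpm4.

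In the calponin and transgelin family, 1 of 5 members rose with TGFB2. Cnn2, calponin 2, the form known from non-muscle cells, had 43.2, 57.6 and 72.6 TPM with TGFB2, 30.1, 33 and 59.9 with BMP4, 27.7, 45.3 and 69.8 with both, and 25.2, 22.6 and 31.6 in NT. Replicate 3 was the highest library of every group, and only the TGFB2 libraries all lay above NT. On the log2 scale the change was 1.14 ± 0.34 in TGFB2 against NT (adjusted p = 0.0347), and 0.88 ± 0.34 in BMP4-TGFB2 against NT (adjusted p = 0.0804), which passed in 6 alternatives, among them DESeq2 (0.0445), no filter on low counts (0.0154), the replicate block (0.0048) and without the replicate 1 libraries (0.0489). The TGFB2 call was lost on leaving out TGFB2 replicate 2 or 3 or any 1 NT library (adjusted p 0.0618 to 0.118). Cnn3, at 212 to 404 TPM, and Tagln2, at 428 to 704 TPM, held most of the family's transcripts and passed in no comparison; 32% of the 31-base stretches of Cnn3 occur in other genes.

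Of the 3 crosslinkers, Flna rose with TGFB2, Flna and Actn1 with both ligands, and Actn4 did not pass. Flna, filamin A, which crosslinks filaments and binds integrin tails, had 313, 292 and 366 TPM with TGFB2, 189, 232 and 247 with BMP4, 327, 395 and 369 with both, and 183, 176 and 232 in NT. All 6 libraries with TGFB2 lay above all 6 without it. Flna had a log2 fold change of 0.67 ± 0.19 in TGFB2 against NT (adjusted p = 0.0266), a call lost on leaving out TGFB2 replicate 1 or 3 or NT replicate 1 or 2 (adjusted p 0.0575 to 0.103), and 0.82 ± 0.19 in BMP4-TGFB2 against NT (adjusted p = 0.00891). Actn1, alpha-actinin 1, had 310, 359 and 536 TPM with TGFB2, 278, 377 and 441 with BMP4, 327, 470 and 560 with both, and 317, 249 and 326 in NT. Only the libraries with both ligands all lay above NT, the lowest of them by little. Its log2 fold change of 0.64 ± 0.21 in BMP4-TGFB2 against NT passed (adjusted p = 0.0402), and the call was lost in 7 alternatives, namely without BMP4-TGFB2 replicate 2 or 3, BMP4 replicate 2, or any 1 NT library, and with only the compared groups (adjusted p 0.0506 to 0.149). Actn4, its paralog, ranged from 490 to 883 TPM and did not pass. The share of Actn1 in their summed TPM was 39.4% ± 5.79 with TGFB2, 32% ± 6.05 with BMP4, 40.2% ± 3.38 with both and 29.4% ± 2.8 in NT (SD, n = 3 each).

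At the adhesion plaque, zyxin and kindlin-1 rose with TGFB2, while talin, vinculin and kindlin-2 did not pass in the fit by group alone. Fermt1, kindlin-1, which activates integrins in epithelia (chr2:132904389-132945906, minus strand, GRCm38), had 76.1, 54.6 and 81.7 TPM with TGFB2, 11, 11.8 and 14.4 with BMP4, 58.7, 54 and 73.9 with both, and 13.4, 11.4 and 11.6 in NT. Libraries with TGFB2 and libraries without it did not overlap. The log2 fold change was 2.54 ± 0.23 in TGFB2 against NT (adjusted p = 4.07e-05), 2.32 ± 0.23 in BMP4-TGFB2 against NT (adjusted p = 4.45e-05) and -0.02 ± 0.22 in BMP4 against NT (adjusted p = 0.982). Fermt2, kindlin-2, ranged from 28.7 to 63.5 TPM and had a log2 fold change of -0.29 ± 0.22 in TGFB2 against NT (adjusted p = 0.382). Fermt1 thus made up 64% ± 4.55 of the summed TPM of both kindlins with TGFB2, 24.2% ± 3.24 with BMP4, 60.1% ± 3.88 with both and 19.3% ± 1.63 in NT (SD, n = 3 each).

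Zyx, zyxin, a LIM protein of adhesions and stress fibres (chr6:42349630-42360213, plus strand, GRCm38), had 142, 135 and 180 TPM with TGFB2, 76.9, 95.7 and 94.1 with BMP4, 130, 147 and 153 with both, and 79.6, 77.7 and 72.8 in NT. All 6 libraries with TGFB2 lay above all 6 without it. The log2 fold change was 1.10 ± 0.13 in TGFB2 against NT (adjusted p = 0.000203) and 1.08 ± 0.13 in BMP4-TGFB2 against NT (adjusted p = 0.000159). Zyx shares exon sequence with Epha1, which had 32.9% of its mean CPM and a log2 fold change of 0.37 ± 0.13 in TGFB2 against NT (adjusted p = 0.0552). Pxn, paxillin, averaged 107 ± 5.15 TPM with TGFB2, 73.5 ± 7.08 with BMP4, 103 ± 3.88 with both and 89.1 ± 9.61 in NT (SD, n = 3 each), between which no comparison with NT passed. Tln1, talin 1, ranged from 33 to 83.6 TPM and did not pass, with 0.66 ± 0.24 in BMP4-TGFB2 against NT (adjusted p = 0.0623); this value passed in 9 alternatives, among them DESeq2 (0.044), no filter on low counts (0.0228), only the compared groups (0.0371) and without the replicate 1 libraries (0.0385). Vcl, vinculin, ranged from 27.4 to 59.8 TPM and did not pass, with 0.34 ± 0.24 in TGFB2 against NT (adjusted p = 0.336), though it passed in BMP4-TGFB2 against NT without the replicate 1 libraries (adjusted p = 0.0181). Both share exon sequence with another gene, Tln1 with Creb3 (19.9% of its mean CPM) and Vcl with Ap3m1 (54.8%), and Ap3m1 fell with TGFB2 (-0.46 ± 0.11, adjusted p = 0.0105). With the replicate block Tln1 and Vcl passed in TGFB2 against NT (adjusted p = 0.0233 and 0.0468). In BMP4-TGFB2 against NT the block gave calls for Tln1 (adjusted p = 0.00113), Vcl (0.01) and Pxn (0.0477).

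**Figure D3:**
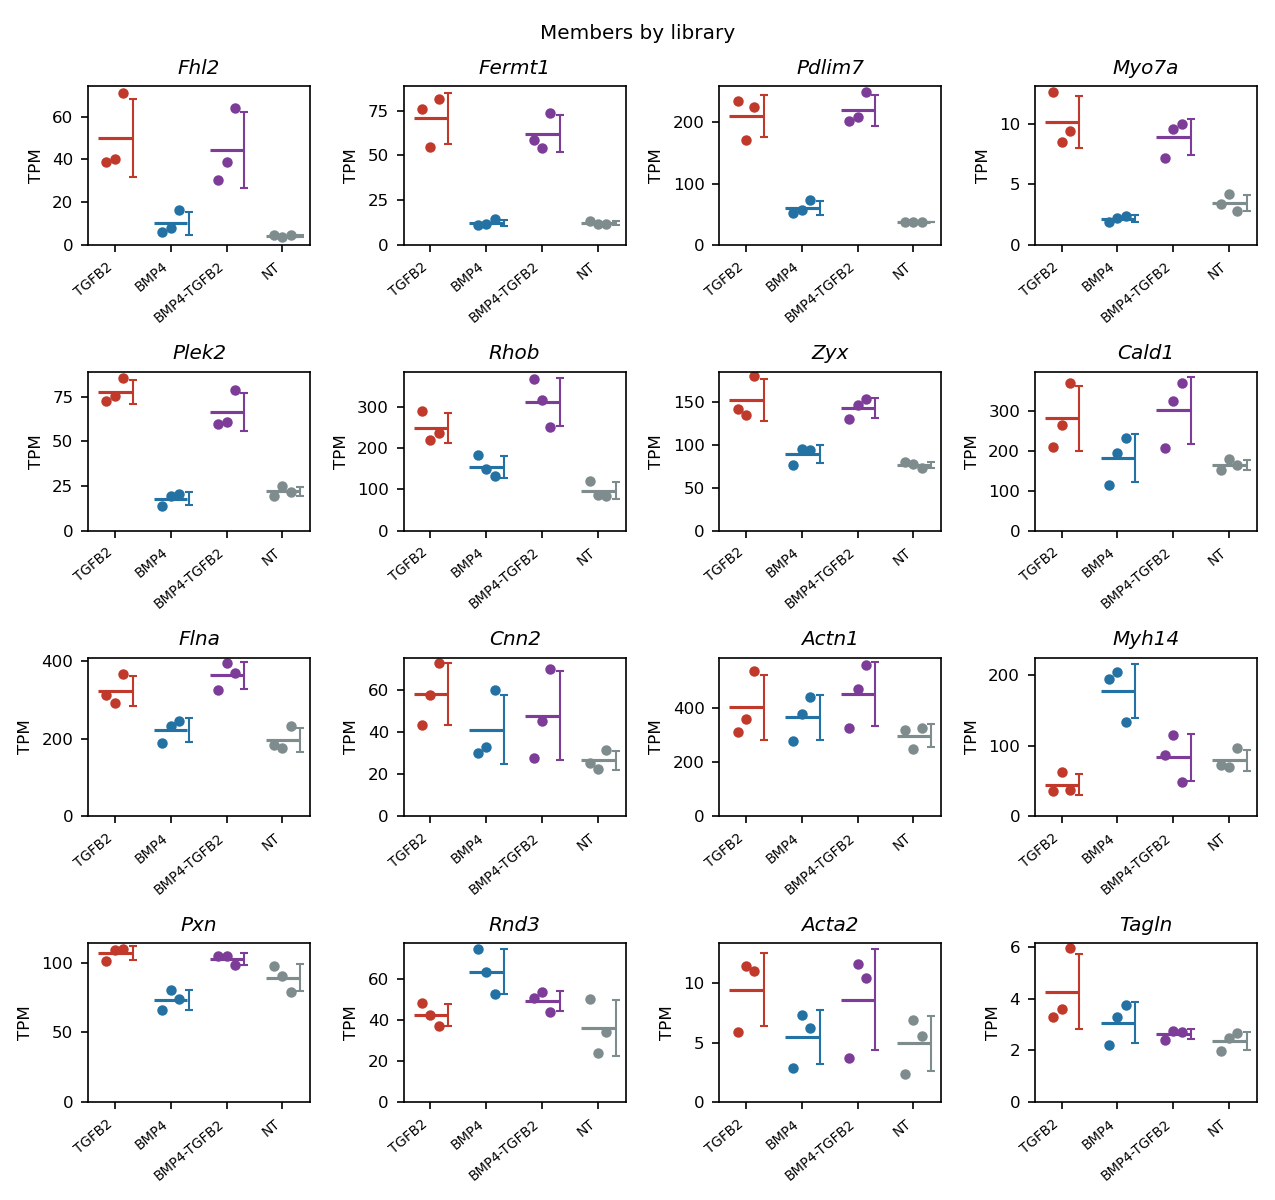
Each panel shows TPM of 1 gene in every library (points), with the mean (line) and SD (bar) of the 3 libraries of each group, on a linear axis from 0. Fhl2, Fermt1, Pdlim7, Myo7a and Plek2 separate the 6 libraries with TGFB2 from the 6 without it, and Myh14 is highest with BMP4.

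Of the 6 LIM-domain proteins Fhl2 and Pdlim7 rose with TGFB2. Fhl2, a scaffold made of LIM domains that binds integrins and works as a transcription cofactor (chr1:43123074-43196984, minus strand, GRCm38), had 38.8, 40 and 70.9 TPM with TGFB2, 6.18, 7.97 and 16.3 with BMP4, 30.2, 38.9 and 64.1 with both, and 4.56, 3.74 and 4.59 in NT. Replicate 3 was the highest library of every group, every treated library lay above NT, and every library with TGFB2 lay above those without it. The log2 fold change was 3.58 ± 0.42 in TGFB2 against NT (adjusted p = 0.000178) and 3.43 ± 0.42 in BMP4-TGFB2 against NT (adjusted p = 0.000157). In BMP4 against NT it was 1.35 ± 0.40 (adjusted p = 0.0763), which passed with DESeq2 (adjusted p = 0.00937), with no filter on low counts (0.00463) and with the replicate block (0.00324), but not without the replicate 1 libraries (0.104).

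Pdlim7, also called enigma, joins a PDZ domain to LIM domains and sits on actin filaments (chr13:55495795-55513676, minus strand, GRCm38). It had 235, 172 and 226 TPM with TGFB2, 51.7, 56.4 and 74 with BMP4, 202, 209 and 249 with both, and 37.2, 37.8 and 37.3 in NT. The groups fell into 3 levels that did not overlap, highest with TGFB2 with or without BMP4, intermediate with BMP4 and lowest in NT. Its log2 fold change was 2.51 ± 0.18 in TGFB2 against NT (adjusted p = 9.55e-06), 0.77 ± 0.17 in BMP4 against NT (adjusted p = 0.0238) and 2.52 ± 0.18 in BMP4-TGFB2 against NT (adjusted p = 5.11e-06). The BMP4 call was lost on leaving out BMP4 replicate 1 or 3, any 1 NT library, or all replicate 1 libraries (adjusted p 0.0519 to 0.11).

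The other LIM proteins did not pass in any comparison as tested. With the replicate block Fhl3 passed in TGFB2 against NT (adjusted p = 0.00295). Without the replicate 1 libraries Pdlim5 passed in BMP4-TGFB2 against NT (adjusted p = 0.0421). Fhl1 ranged from 1.56 to 7.15 TPM, Fhl3 from 8.55 to 35.2, Pdlim1 from 5.38 to 12.7 and Pdlim5 from 72.1 to 128. Fhl3 lay above NT in all 6 libraries with TGFB2, with a log2 fold change of 0.71 ± 0.30 in TGFB2 against NT (adjusted p = 0.12; 0.0302 without the replicate 1 libraries). Within its family, Fhl2 took 61.1% ± 6.53 of the summed TPM of Fhl1, Fhl2 and Fhl3 with TGFB2, 34% ± 7.04 with BMP4, 57.9% ± 4.47 with both and 17.5% ± 3.6 in NT. Pdlim7 took 68.1% ± 6.13 of that of Pdlim1, Pdlim5 and Pdlim7 with TGFB2, 32.3% ± 3.69 with BMP4, 67.8% ± 4.89 with both and 26% ± 3.14 in NT (SD, n = 3 each). With TGFB2 a different member of each family was the most abundant than in NT, Fhl2 against Fhl3 and Pdlim7 against Pdlim5.

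**Figure D4:**
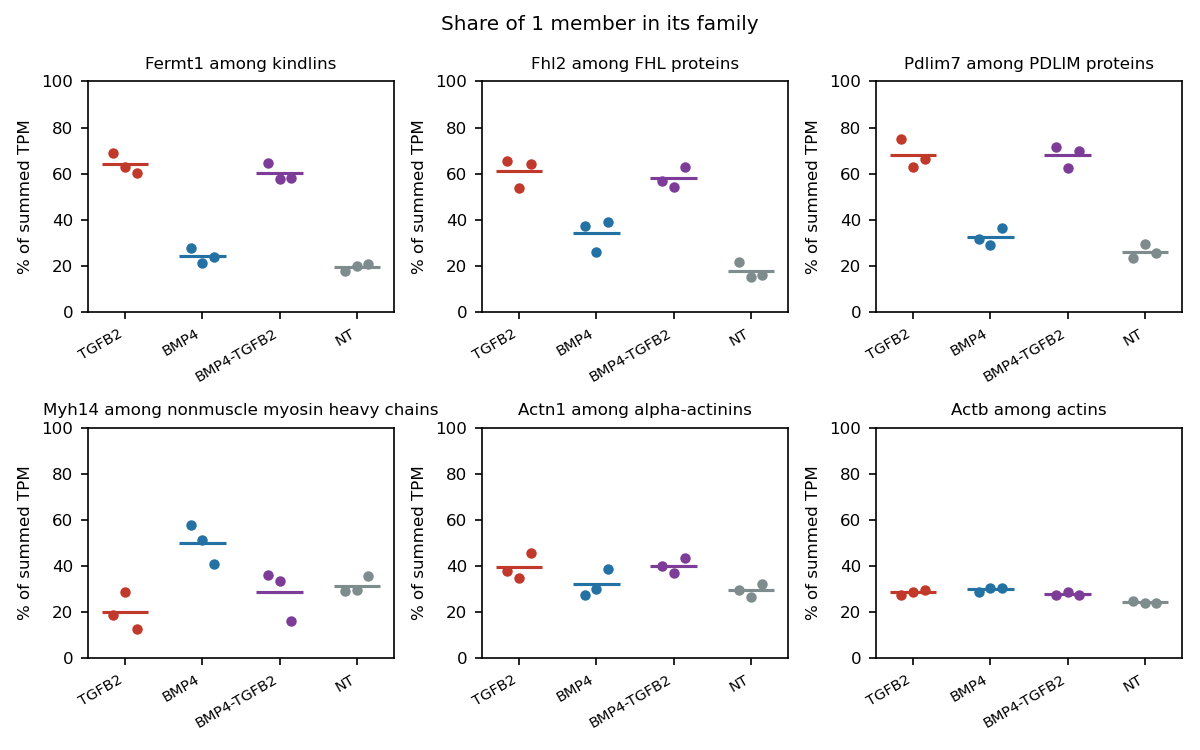
Points give the share (%) of 1 gene in the summed TPM of its family in each library and lines the group mean. Fermt1, Fhl2 and Pdlim7 hold at least 53.6% of their families in every library with TGFB2 and at most 39.1% in every library without it, and Myh14 is highest with BMP4.

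Among the regulators, Rhob and Plek2 rose with TGFB2. Rhob, a small GTPase found on endosomes and at the plasma membrane, had 290, 219 and 236 TPM with TGFB2, 182, 148 and 132 with BMP4, 367, 317 and 250 with both, and 120, 87 and 84.4 in NT. Every treated library lay above NT, replicate 1 was the highest library of every group, and all libraries with TGFB2 lay above those with BMP4 alone. The log2 fold change was 1.37 ± 0.20 in TGFB2 against NT (adjusted p = 0.000691) and 1.71 ± 0.20 in BMP4-TGFB2 against NT (adjusted p = 0.00014). In BMP4 against NT it was 0.71 ± 0.20 (adjusted p = 0.0644), which passed with DESeq2 (adjusted p = 0.0227), with no filter on low counts (0.0278), with the replicate block (0.00046) and without the replicate 1 libraries (0.0238).

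Plek2, pleckstrin 2, a membrane-associated protein linked to actin rearrangement (chr12:78888691-78906964, minus strand, GRCm38), had 72.7, 75.3 and 85.5 TPM with TGFB2, 14, 19.4 and 20.6 with BMP4, 59.5, 61 and 78.6 with both, and 19.4, 24.8 and 21.7 in NT. Libraries with TGFB2 and libraries without it did not overlap. Its log2 fold change was 1.82 ± 0.18 in TGFB2 against NT (adjusted p = 6.14e-05), 1.62 ± 0.18 in BMP4-TGFB2 against NT (adjusted p = 8.77e-05) and -0.25 ± 0.18 in BMP4 against NT (adjusted p = 0.511). Rnd3, an atypical small GTPase that lacks GTP hydrolysis, averaged 42.6 ± 5.59 TPM with TGFB2, 63.8 ± 11 with BMP4, 49.5 ± 4.88 with both and 36.2 ± 13.5 in NT (SD, n = 3 each). The BMP4 libraries lay above NT, and the log2 fold change of 0.92 ± 0.27 in BMP4 against NT did not pass (adjusted p = 0.0794), while it passed with DESeq2 (adjusted p = 0.0227), with no filter on low counts (0.0128), with the replicate block (0.00738), without NT replicate 1 (0.0181) and without all replicate 1 libraries (0.0342).

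With BMP4 alone, Myh14 and Pdlim7 were thus the 2 genes that rose. Same-numbered libraries deviated together in BMP4 and NT, and with the replicate number as a block 8 of the 38 genes rose, against 8.6% of all genes tested. These were Myh14, Pdlim7, Fhl2 (1.22), Rnd3 (0.95), Rhob (0.71), Cnn2 (0.63), Actn1 (0.41) and Tpm4 (0.28, adjusted p = 0.0469). Counts were 0 on leaving out BMP4 replicate 1 or NT replicate 2, and 1 on leaving out BMP4 replicate 2 or 3 or NT replicate 1 or 3. Without all replicate 1 libraries 2 genes rose, against 2.62% of all genes, but these were Rhob and Rnd3. The median log2 fold change was 0.17 over the 38 genes and 0.00 over all genes tested.

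Adding BMP4 to TGFB2 changed no actin or adhesion gene beyond the threshold. BMP4-TGFB2 against TGFB2 gave 0 of 38 genes by edgeR's quasi-likelihood test, where 0% of all genes tested passed, and 0 by DESeq2; 3 of the 38 had an unadjusted p under 0.05, and 516 of all genes tested (3.37%). With the replicate block, in which same-numbered libraries of these groups deviated together, 0.0392% of all genes and none of the 38 passed. The largest differences were in Myh14 (0.94 ± 0.26, adjusted p = 0.925), Mylk (-0.86 ± 0.47) and Tagln (-0.71 ± 0.30), with an adjusted p of 1 for the last 2. Differences were small beside the responses for Pdlim7 (0.02 ± 0.17), Zyx (-0.02 ± 0.13), Fhl2 (-0.15 ± 0.38) and Fermt1 (-0.22 ± 0.22).

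Compared with BMP4 alone, the combination raised kindlin-1, 2 of the 6 LIM-domain genes and the small GTPase Rhob, among others. Rnd3, also a small GTPase, did not pass. In BMP4-TGFB2 against BMP4, 8 of 38 genes rose, against 4.24% of all genes tested, and Myh14 fell, against 4.98% of all genes. The risers were Fermt1 (2.34 ± 0.23, adjusted p = 0.000289), Fhl2 (2.09 ± 0.39), Plek2 (1.87 ± 0.18), Pdlim7 (1.76 ± 0.17), Myo7a (1.69 ± 0.19), Rhob (0.997 ± 0.20), Zyx (0.76 ± 0.13) and Pxn (0.45 ± 0.10, adjusted p = 0.0172). The Rhob call was lost without BMP4 replicate 2 (adjusted p = 0.0565). Flna, which did not pass, passed with DESeq2 (adjusted p = 0.0274), with no filter on low counts (0.0233) and without BMP4 replicate 3 (0.0217). Pxn was lost without BMP4 replicate 1 or 2 or BMP4-TGFB2 replicate 1, and in 3 other alternatives (adjusted p 0.0599 to 0.0886). The fall of Myh14 (-1.08 ± 0.26, adjusted p = 0.0266) was lost without BMP4 replicate 1 or 2 or BMP4-TGFB2 replicate 1 or 3, without all replicate 1 libraries and with only the compared groups (adjusted p 0.0633 to 0.132). With the replicate block 14 rose (10.7% of all genes) and 2 fell (12% of all genes), the added ones being Acta2, Cald1, Fhl3, Flna, Tln1 and Tpm1 among those that rose and Myh10 among those that fell.

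The ligands were also compared with each other. In TGFB2 against BMP4, of 38 genes 7 rose, against 3.67% of all genes tested, namely Fermt1 (2.56 ± 0.23, adjusted p = 0.000242), Fhl2 (2.23 ± 0.40), Myo7a (2.12 ± 0.19), Plek2 (2.07 ± 0.18), Pdlim7 (1.74 ± 0.17), Zyx (0.77 ± 0.13) and Pxn (0.44 ± 0.10, adjusted p = 0.0209), and Myh14 fell, against 4.16% of all genes. Pxn was lost without any 1 TGFB2 library, without BMP4 replicate 1 or 2, and in 3 other alternatives (adjusted p 0.0503 to 0.094). With the replicate block 12 rose (9.54% of all genes) and 2 fell (10% of all genes), the added ones being Acta2, Cald1, Fhl3, Flna and Rhob among those that rose and Actn4 among those that fell. Rhob also passed with DESeq2 (adjusted p = 0.0337), with no filter on low counts (0.0277) and without the replicate 1 libraries (0.0197). This comparison shares its libraries with those above, so its calls are not separate evidence.

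The interaction asks whether the response to both ligands differed from the sum of the responses to each on the log2 scale. By edgeR's quasi-likelihood test 0 of 38 genes passed, against 0.157% of all genes tested, and 0 by DESeq2; 3 of the 38 had an unadjusted p under 0.05. With the replicate block 1 of the 38 genes passed, against 1.83% of all genes, namely Fhl2 (-1.41, adjusted p = 0.0356); same-numbered libraries were paired by the rule used in BMP4 and NT and in BMP4-TGFB2 and TGFB2, but not in TGFB2 and NT or BMP4-TGFB2 and NT. Values above 0 were found in 10 of the 38 genes, against 48% of all genes tested, and the median was -0.19 against -0.02 over all genes. The lowest was that of Fhl2 (-1.49 ± 0.54, adjusted p = 0.443), followed by Tagln (-0.99 ± 0.42), Cnn2 (-0.96 ± 0.48), Myl9 (-0.80 ± 0.67), Cnn1 and Rnd3 (both -0.77) and Pdlim7 (-0.75 ± 0.24, adjusted p = 0.339).

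Around these genes, 138 others of the same machinery were examined, of which 135 were tested. With TGFB2 21 of them rose against NT, against 11.3% of all genes tested, and 12 fell, against 11.1% of all genes, with a median log2 fold change of 0.06. With BMP4 alone 10 rose (3.19% of all genes) and 4 fell (2.25% of all genes), with both ligands 25 rose (13.3% of all genes) and 17 fell (12.9% of all genes), and in BMP4-TGFB2 against TGFB2 none passed. The counts by group that follow are for TGFB2 against NT, with the same 11.3% and 11.1% of all genes as background.

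Of 19 tested bundlers, scaffolds and other filament proteins, 7 rose, none fell and 12 did not pass in TGFB2 against NT. Fblim1, migfilin, which links filamin to kindlin-bound adhesions, averaged 161 TPM with TGFB2 and 82.7 TPM in NT (0.92 ± 0.12, adjusted p = 0.000255). Palld, palladin, a scaffold of stress fibres, averaged 19.4 TPM with TGFB2 and 5.2 TPM in NT (1.92 ± 0.25, adjusted p = 0.000326). Msn, moesin, rose by 1.02 ± 0.20 and Lima1, a filament bundler, by 0.64 ± 0.14. Of the 25 integrin-linked adaptors and kinases 5 rose and 1 fell. Ptk2b, the kinase PYK2, averaged 33.7 TPM with TGFB2 and 6.71 TPM in NT (2.34 ± 0.30, adjusted p = 0.000326), and the docking proteins Nedd9 (1.12 ± 0.18) and Bcar1 (0.85 ± 0.14) rose too. Tln2, the second talin, averaged 3.43 TPM with TGFB2 and 11.5 TPM in NT (-1.64 ± 0.46, adjusted p = 0.0241).

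Of 10 tested SRF, MRTF and TEAD regulators 3 rose and 2 fell with TGFB2. Tead2 rose by 1.48 ± 0.14 (adjusted p = 5.91e-05) and by 0.99 ± 0.14 in BMP4 against NT (adjusted p = 0.00309), while Tead4, of the same family of DNA-binding proteins, averaged 13.6 TPM with TGFB2 and 31.9 TPM in NT (-1.15 ± 0.19, adjusted p = 0.00149). Vgll3, a cofactor of TEAD proteins, averaged 15.6 TPM with TGFB2 and 1.95 TPM in NT (2.89 ± 0.51, adjusted p = 0.002), and Wwtr1, the coactivator TAZ, rose by 0.82 ± 0.16. Of 23 tested small GTPases, kinases and formins 2 rose and 4 fell, with Pak1 (0.83 ± 0.11) and Rhod (0.44 ± 0.12) up and Rac3 (-0.99 ± 0.22) and Arhgap29 (-1.09 ± 0.26) down.

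Of 25 actin turnover and Arp2/3 genes 1 rose and 3 fell. Tmsb4x, thymosin beta 4, which sequesters actin monomers, averaged 2097 TPM with TGFB2, 586 with BMP4, 2776 with both and 308 in NT, and rose by 2.78 ± 0.21 in TGFB2 against NT (adjusted p = 1.85e-05) and by 0.98 ± 0.20 in BMP4 against NT (adjusted p = 0.0177). Pfn2, a profilin, had a log2 fold change of -1.19 ± 0.26, and the Arp2/3 subunits Actr2 (-0.38 ± 0.09) and Arpc1b (-0.39 ± 0.11) fell by less. Of 14 other LIM proteins Csrp2 (2.36 ± 0.52) and Ajuba (0.82 ± 0.18) rose. Of 19 other actins, myosins and light chains Myl12a, a regulatory light chain, averaged 591 TPM with TGFB2 and 326 TPM in NT (0.85 ± 0.14, adjusted p = 0.00113), and the unconventional myosins Myo1d (-1.25 ± 0.18) and Myo18a (-0.86 ± 0.13) fell.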

How the data were processed

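RNA was enriched with oligo(dT) beads and libraries were made with a NEBNext Ultra II kit, per the labels' protocols. Salmon 1.2.1, STAR 2.7.5b, bcl2fastq 2.17 and the build GRCm38.p6 are named, without roles, in the submitters' processing notes, and no settings are given there. Deposited by the authors were estimated counts per gene and TPM, scaled by them for transcript length and depth, per the file headers. A deposited table of normalized signal was not used. Deposited fields gave unstranded libraries, 1 sequencing batch and, for each of the 12 libraries, a quality check that was passed.

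Of the counts 82.9% were whole, and rounding changed the total by 0.000361%. Genes were kept by filterByExpr with a minimum count of 10 (15319 genes, 99.9% of counts), scaled by TMM (factors 0.971 to 1.03) and fitted with all 12 libraries in 1 model by group in edgeR 4.0.16 (R 4.3.3), without a replicate block. Each of 7 comparisons was tested with the quasi-likelihood test. Before that, the test was tried on data simulated without a replicate effect, for TGFB2 against NT and BMP4 against NT only. The common biological coefficient of variation was 0.299. Alternatives were RLE factors, DESeq2 1.42.0, no filter, a replicate block, only the compared groups, each library left out and all replicate 1 libraries left out. No 2 replicates agreed within sampling noise (lowest chi-square per degree of freedom 31.7).

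Same-numbered libraries were taken as paired where every correlation of their deviations from the group means was over 0.1. This held for BMP4 and NT (0.162 to 0.444), BMP4-TGFB2 and TGFB2 (0.229 to 0.505), BMP4-TGFB2 and BMP4 (0.146 to 0.348) and TGFB2 and BMP4 (0.15 to 0.346), so the pairing is a pattern of the data and not of the labels. It did not hold for TGFB2 and NT (from 0.0805) or BMP4-TGFB2 and NT (from 0.0256). Missing this cut-off does not show that libraries were unpaired, and replicate 1 stood apart in all 4 groups.

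The genes and lists were chosen with earlier results of these data known. TPM in every library is given for the actins and for each gene that passed against NT, and of each further list the 4 genes or fewer with the smallest p in TGFB2 against NT are named. Coordinates are from GENCODE M21 where the gene identifier and version matched, as for 35 of the 39 genes. Promoters are from RefSeq in GRCm38.p6, and partners sharing exon sequence are named where their mean CPM exceeds 10% of the gene's own.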

Additional observations from a re-analysis of the deposited data

How the results depend on the processing

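Of the single-gene values of the 38 genes, 4599 kept their side of the threshold over all alternatives and comparisons, 65 lost a call and 86 gained one. The sign changed in 234 values that passed neither way, and in no value that passed in either fit. RLE factors changed no call of these genes. The number of the 38 genes that passed ranged, on leaving out 1 library at a time, from 7 to 11 in TGFB2 against NT, 0 to 2 in BMP4 against NT, 8 to 13 in BMP4-TGFB2 against NT, 6 to 11 in BMP4-TGFB2 against BMP4 and 7 to 8 in TGFB2 against BMP4, and was 0 in BMP4-TGFB2 against TGFB2 and in the interaction. Over all genes these ranges were 2011 to 3629, 292 to 751, 2519 to 4195, 655 to 1616, 558 to 1326, 0 to 1 and 0 to 26. Without all replicate 1 libraries 17 of the 38 genes passed in BMP4-TGFB2 against NT, and 6 of all genes in the interaction.

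The replicate block raised the count of the 38 genes to 20 in TGFB2 against NT and 21 in BMP4-TGFB2 against NT, where the numbers did not pair by the rule used, to 8 in BMP4 against NT, 16 in BMP4-TGFB2 against BMP4 and 14 in TGFB2 against BMP4, and to 1 in the interaction (Fhl2, -1.41, adjusted p = 0.0356). Over all genes the block gave 5799, 6342, 2356, 3476, 2999 and 280, and 6 in BMP4-TGFB2 against TGFB2. It changed no call of the 38 genes in BMP4-TGFB2 against TGFB2. In TGFB2 and NT, 3 of the same-numbered libraries correlated best with their own number, and 2 in BMP4-TGFB2 and NT.

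DESeq2 gave 1449 of all genes in BMP4 against NT, 1853 in TGFB2 against BMP4, 44 in BMP4-TGFB2 against TGFB2 and 263 in the interaction. No filter gave 23 and 173 in the last 2 of these, and 5 of the 38 genes in BMP4 against NT, as did DESeq2. With only the compared groups, 554 genes passed in BMP4 against NT and 932 in BMP4-TGFB2 against BMP4. The cause of these differences was not tested. Depth limits Actg2, with 0 to 5 counts per library.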
